A study of Mus musculus with 6 samples.

Results

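Among the 46983 genes in the count table of this RNAseq experiment, 5 were chosen as abundant features that carry, or behave like, ribosomal RNA: CT010467.1, Gm23935, Lars2, Gm26917 and Mir6236. They were picked by name after their high counts were known, so their abundance is a description and not a finding. All 5 were among the 13961 genes that passed the filter on low counts. By mean share of a library's counts they held ranks 1, 2, 3, 5 and 9 of the whole table, and 5 of the 10 most abundant genes were members. The protein-coding genes between and around them were Fth1 at rank 4 with 1.72% of counts, Gpnmb, Ctsb and Psap at ranks 6 to 8 with 0.864% to 0.905%, and Il1rn at rank 10 with 0.766%. No threshold was part of the choice, and the members together took from 9.44% to 30.8% of a library's counts.

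The cells were GFP-positive neural crest cells (NCCs) sorted at E11.25 from 3 control mouse embryos and 3 embryos deficient in BAF155 and BAF170, subunits of the BAF chromatin remodelling complex. Controls carried Wnt1Cre/+, BAF155flox/+, BAF170flox/+ and Rosa26mTmG/+, and deficient embryos carried Wnt1Cre/+, BAF155flox/flox, BAF170flox/flox and Rosa26mTmG/+, so the controls were already heterozygous for both floxed alleles. Cre was driven by Wnt1, which is also active in dorsal neural stem cells, and GFP was switched on by Cre from the mTmG reporter. P-values measure the spread between these samples only.

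Ribosomes are built from a few long RNAs transcribed in the nucleolus by RNA polymerase I as one precursor, in which an external spacer precedes the 18S RNA and the 28S RNA follows. Ribosomal RNA makes up most of the RNA of a cell and is largely without a poly(A) tail, so a poly(A) library is meant to leave it out. Lars2 encodes the mitochondrial leucyl-tRNA synthetase, which loads leucine onto the tRNA used by mitochondrial ribosomes, while Lars does so in the cytosol.

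In the GENCODE M21 annotation of GRCm38, CT010467.1 (ENSMUSG00000106106.2) is an rRNA gene on the minus strand at chr17:39846353-39848827 with 2466 bases of exon. Gm26917 (ENSMUSG00000097971.3) is a lincRNA on the plus strand at chr17:39843013-39846341, and 11 bases separate it from CT010467.1. Lars2 (ENSMUSG00000035202.7) is protein coding at chr9:123366927-123462666, plus strand, with 11089 bases of exon. Mir6236 (ENSMUSG00000098973.1) is a miRNA gene of 123 bases at chr9:110281287-110281409, plus strand. A poly(A) library does not measure mature miRNAs, so its counts are of other RNA whose reads were assigned to the gene. Where that RNA came from was not tested. Mir6236 lies 41108 bases past the end of Smarcc1, the gene of BAF155. Its nearest coding genes are Cspg5, 18710 bases before it and past Smarcc1, and Elp6, 23763 bases after it. Gm23935 (ENSMUSG00000076258.1) is annotated as a miRNA gene of 57 bases at chr16:11144125-11144181, plus strand, inside the span of Zc3h7a on the opposite strand.

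The ends of CT010467.1 are shown because they identify the feature. Its longer transcript has 1849 bases, and its first 60 bases (chr17:39848142-39848201, minus strand) are followed here by the plus strand at the far end of the same exon (chr17:39846353-39846412) and at the near end (chr17:39848142-39848201).
CT010467.1, minus strand: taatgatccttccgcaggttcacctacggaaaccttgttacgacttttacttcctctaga
plus strand, far end: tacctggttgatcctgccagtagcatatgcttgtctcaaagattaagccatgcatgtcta
plus strand, near end: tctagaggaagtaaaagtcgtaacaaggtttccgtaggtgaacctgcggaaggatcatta
The last 2 lines are, as textbook background, the beginning and the end of 18S ribosomal RNA, so the annotated CT010467.1 runs antisense to an 18S sequence on the plus strand. Gm26917 lies just upstream of that sequence on the plus strand, where the external spacer of a ribosomal precursor would be, and its last 60 bases (chr17:39846282-39846341) are rich in C.
Gm26917, end: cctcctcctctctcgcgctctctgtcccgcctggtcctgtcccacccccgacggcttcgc

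Gm23935 is shown beside 3 of the 4 annotated genes that share a run of 25 bases with it, with bases that differ in capitals. The fourth, Gm23388, had 0 counts in all 6 libraries and is not shown.
Gm23935, chr16:11144125-11144181: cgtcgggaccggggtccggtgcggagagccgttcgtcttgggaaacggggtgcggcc
Gm24270, chr9:56223715-56223771: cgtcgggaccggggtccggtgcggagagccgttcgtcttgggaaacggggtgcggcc
Gm24245, chr4:139338304-139338360: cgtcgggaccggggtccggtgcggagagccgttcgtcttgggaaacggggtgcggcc
Gm24187, chr13:9834469-9834525: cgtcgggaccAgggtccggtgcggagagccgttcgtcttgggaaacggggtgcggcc
Gm24270 and Gm24245 are identical to Gm23935 over all 57 bases, yet their counts were far lower. Against 583785, 543078, 356357, 609919, 507191 and 420331 counts of Gm23935 in control 1 to 3 and deficient 1 to 3, Gm24270 had 22442, 24853, 17154, 49352, 22862 and 31290. Gm24245 had between 203 and 1738 counts in a library. How reads that match several of these places were treated is not given in the sources used here, so the count of Gm23935 on its own is uncertain.

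GC content set 2 members apart from most genes. Gm23935 had 73.7% G and C and Gm26917 69.1%, above 99.97% and 99.92% of the 13930 tested genes with a transcript, whose median was 49.5%. CT010467.1, Mir6236 and Lars2 had 55.4%, 56.1% and 51.2%, between the 59.15 and 83.55 percentiles. No 25-base word was shared between any of the 5 members on either strand. Lars2, with 11089 bases of exon the longest of the 5, shared such a word with 909 other annotated genes, against 0 to 4 for each other member. Other genes of like length were not examined, so 909 is not shown to be particular to Lars2. No whole ribosomal precursor was compared, so these shared words cannot tell whether Lars2 holds ribosomal sequence outside the members. CT010467.1 overlaps 2 annotated lincRNAs, Gm42418 on the plus strand and AY036118 on the minus strand, over 1822 of its 2466 bases of exon, and both of these had 0 counts in all 6 libraries. Of 58 genes of at least 200 bases that lie wholly inside an exon of a gene on the other strand with at least 1000 counts, 56 had 0 counts, and so had 11 of 13 such genes on the same strand. The libraries were strand-specific, but the strand setting of the counting is not given, so sense and antisense reads at CT010467.1 cannot be told apart.

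Library depth ran from 8191219 to 19808620 counts, and each deficient library was deeper than each control. Smarcc1 had 42.1, 55.0 and 35.1 CPM (counts scaled to 1000000 per library after TMM normalisation) in controls and 29.4, 26.4 and 24.5 CPM in deficient samples (log2 fold change −0.71 ± 0.16 SE, edgeR quasi-likelihood adjusted p = 0.0676). The log2 fold change was −0.53 without control 2. The adjusted p was 0.222 without control 1, 0.132 without deficient 2 and 0.225 without deficient 3. Smarcc2, the gene of BAF170, had a log2 fold change of −0.11 ± 0.058 (adjusted p = 0.251), and reads outside the deleted part of a gene do not check a deletion. Markers of the labelled cell type were low: 9 of 10 neural crest markers passed the low-count filter (Foxd3 did not), with summed levels of 58.6 to 112 CPM in controls and 32.6 to 51.3 CPM in deficient samples. The 12 macrophage markers summed to 11234 to 13058 and 13146 to 14330 CPM, far above the neural crest sum in every library. Endothelial markers summed to 172 to 195 CPM in controls and 198 to 211 CPM in deficient samples. Erythroid markers had 21.8 to 67.0 and 16.7 to 22.6 CPM, and neutrophil markers 16.6 to 21.4 and 23.0 to 26.5 CPM. In bulk RNA, fewer cells of a type and less RNA per cell cannot be told apart.

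Together the 5 members took 25.2%, 30.8% and 16.4% of the counts in controls 1 to 3 and 17.6%, 17.4% and 9.44% in deficient samples 1 to 3. The groups overlapped, since control 3 lay below deficient 1 and 2. The mean was 24.2% ± 7.25 (SD, n = 3) in controls and 14.8% ± 4.65 in deficient samples (exact two-sided permutation test, p = 0.3, where the smallest p of 3 against 3 is 0.1). Counting error was far below this spread, with exact binomial 95% intervals no wider than ± 0.0316 percentage points in any library, and these intervals cover counting error only. Within each genotype the order of the shares was the reverse of the order of depth. Neural crest markers were also highest in controls 1 and 2 (83.4 and 112 CPM) and lowest in deficient 3 (32.6 CPM), and the part of depth or cell content in the shares was not tested.

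**Figure D1:**
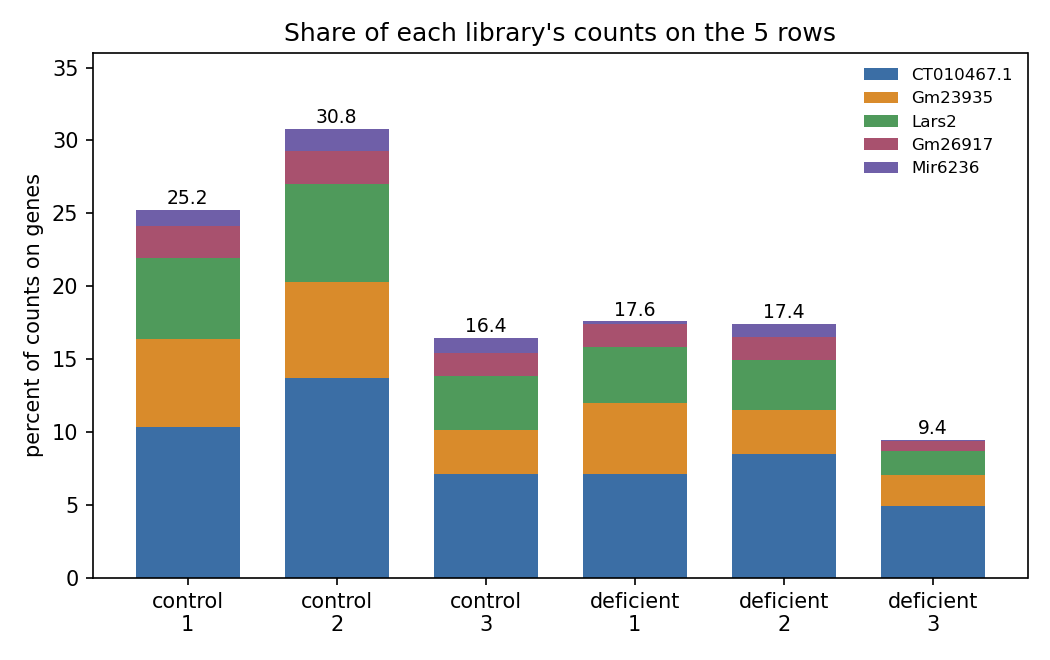
Stacked bars give the percent of each library's counts that fell on the 5 members, with the total printed above each bar and libraries of the same genotype side by side. Control 2 is highest at 30.8% and deficient 3 lowest at 9.44%, and control 3 stands below deficient 1 and 2.

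In absolute counts the members varied less than the rest of the table. They received 2439047, 2523953 and 1915686 counts in controls and 2220756, 2881353 and 1870182 in deficient samples, a 1.54-fold range. All other genes received between 5667266 and 17938438 counts, a 3.17-fold range. The number of counts on the members therefore did not scale with the number on other genes across libraries.

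**Figure D2:**
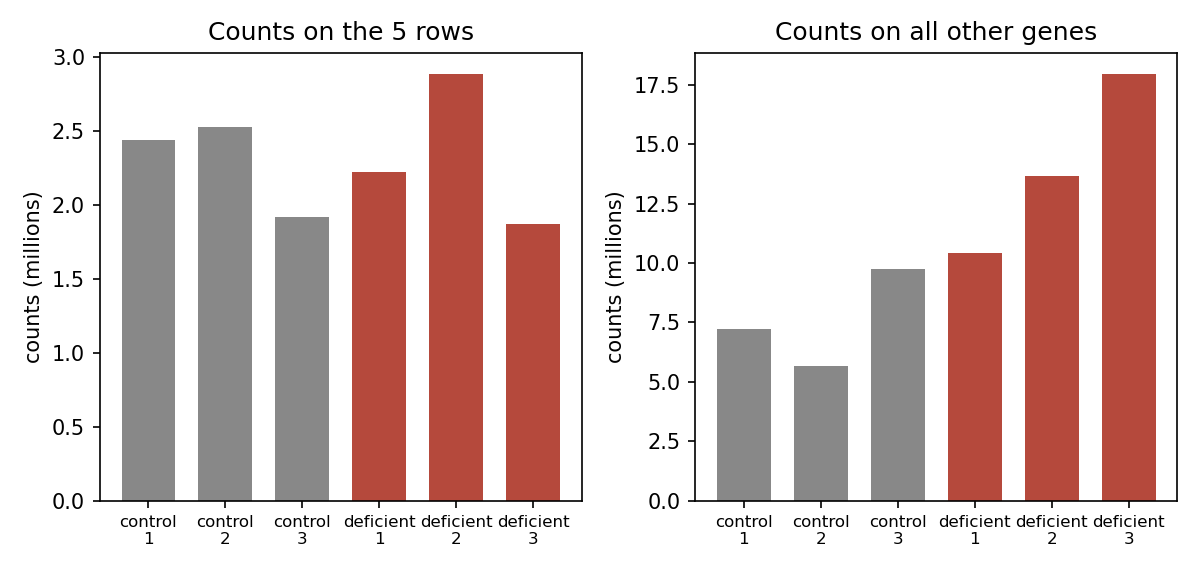
Bars give the counts on the 5 members (left) and on all other genes (right) in each library, grey for control and red for deficient, each axis from 0 and with its own scale. The members span 1.54-fold and the other genes 3.17-fold, and deficient 3, with the most counts on other genes, has the fewest on the members.

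CT010467.1, annotated antisense to the 18S sequence, took 10.3%, 13.7% and 7.10% of counts in controls and 7.14%, 8.47% and 4.91% in deficient samples. Control 3 sat at the level of deficient 1 and below deficient 2. Its log2 fold change was −0.68 ± 0.37 (SE, edgeR adjusted p = 0.307). Gm26917, its upstream neighbour, took 2.21%, 2.25% and 1.59% against 1.56%, 1.56% and 0.654%, a narrow gap with no overlap between the groups (exact permutation p = 0.1, the smallest possible). After TMM normalisation that gap was gone, with 22718, 24643 and 15175 CPM in controls and 15431, 15764 and 6149 CPM in deficient samples (log2 fold change −0.74 ± 0.44, edgeR adjusted p = 0.350).

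Lars2 took 5.57%, 6.72% and 3.70% of counts in controls and 3.86%, 3.40% and 1.67% in deficient samples, with control 3 below deficient 1. Its log2 fold change was −0.91 ± 0.46 (edgeR adjusted p = 0.276). Gm23935 took 6.04%, 6.63% and 3.06% against 4.83%, 3.06% and 2.12%, again overlapping (log2 fold change −0.73 ± 0.49, edgeR adjusted p = 0.409).

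Mir6236 spread most. It took 1.11%, 1.55% and 0.989% of counts in controls, 0.917% in deficient 2, and only 0.194% and 0.0853% in deficient 1 and 3. The shares of the 2 genotypes did not overlap (exact permutation p = 0.1), and its CPM did not either, but the deficient samples were themselves 11.6-fold apart. The log2 fold change was −1.66 ± 1.05 (edgeR adjusted p = 0.388), and it was −3.21 without deficient 2 (adjusted p = 0.115).

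Of all genes tested, 4.94% were called differentially expressed (Benjamini-Hochberg p not above 0.1, a difference of 0.58 or more on the log2 scale in either direction, and 2 CPM or more on average), and 11.9% reached that adjusted p alone. None of the 5 members did either by DESeq2 or by edgeR with genotype as the only term, and none had an unadjusted edgeR p under 0.05, against 27.3% of all genes tested, the lowest being 0.105 for Lars2. Groups did not overlap in CPM for 1 of the 5 members, Mir6236, against 31.4% of all genes tested. With limma-voom Mir6236 was called (log2 fold change −2.34, adjusted p = 0.0874), as were 836 of the 13961 genes tested. All 5 log2 fold changes lay below zero in the main test and in each of the 12 alternatives in which the members could be fitted, among them library totals in place of TMM and each library left out in turn. In the main test 52.3% of all genes tested lay below zero.

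Ratios between members are free of library size. Per count of CT010467.1, Lars2 had 0.540, 0.492 and 0.521 counts in controls and 0.540, 0.401 and 0.339 in deficient samples (exact permutation p = 0.4). Gm26917 had 0.214, 0.165 and 0.223 against 0.218, 0.184 and 0.133, and Gm23935 0.586, 0.485 and 0.431 against 0.676, 0.362 and 0.432. For these 3 the groups overlapped and the ratio stayed within 1.59-fold, 1.68-fold and 1.87-fold over all 6 libraries. Mir6236 had 0.108, 0.113 and 0.139 in controls, 0.108 in deficient 2, and 0.0271 and 0.0174 in deficient 1 and 3, an 8.03-fold range (exact permutation p = 0.2). The pair that kept the most even ratio was Gm26917 and Lars2. It had 0.335 to 0.459 counts of Gm26917 per count of Lars2 and a coefficient of variation (CV) of 10.3%. Lars2 lies on another chromosome and shares no 25-base word with Gm26917.

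**Figure D3:**
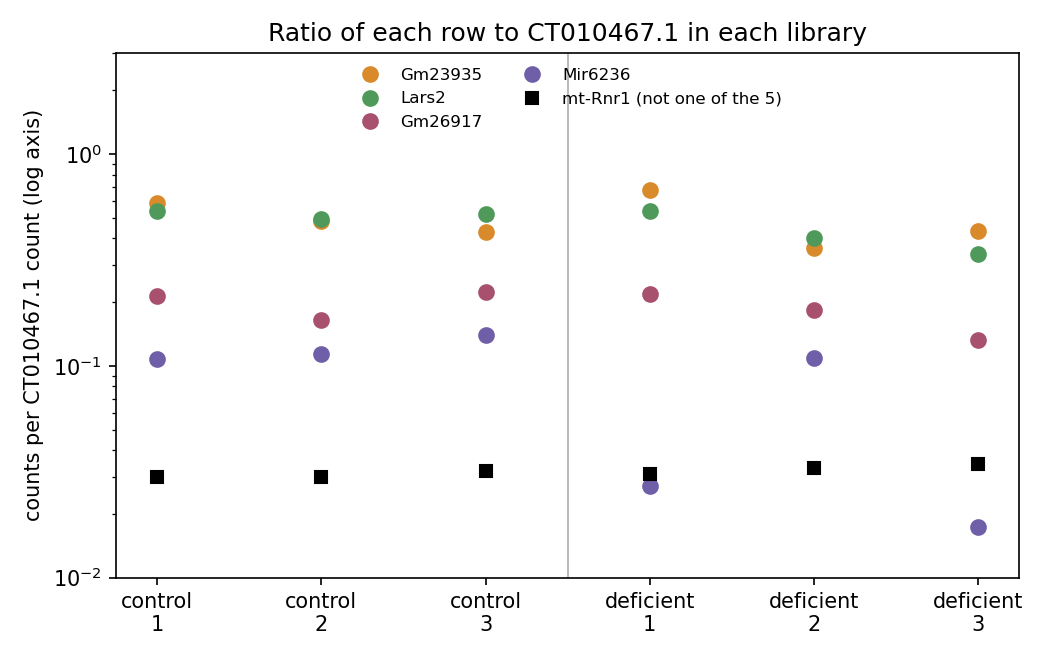
Points give the counts of each feature per count of CT010467.1 in each library on a log axis, with black squares for the mitochondrial 12S RNA mt-Rnr1, which is not a member. Lars2, Gm23935 and Gm26917 stay within 1.87-fold, while Mir6236 in deficient 1 and 3 lies at 0.0271 and 0.0174, below its other 4 libraries.

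Relative to the counts on all other genes, the members were correlated over the 6 libraries. On the log2 scale Pearson's r ran from 0.907 to 0.984 for the 6 pairs without Mir6236, with exact permutation p of 0.00278 to 0.0125 and adjusted p of 0.0139 to 0.0179 over the 10 pairs. The highest was Lars2 with Gm26917 (r = 0.984, Spearman's rho = 0.943 with exact p = 0.0167, adjusted 0.0417), which kept r = 0.982 without the 2 libraries farthest from the median and r = 0.972 within genotypes. Without those 2 libraries the lowest of the 6 was CT010467.1 with Gm23935, whose r went from 0.909 to 0.678. By Pearson's r, Mir6236 was less tied to the others. Its r with Gm23935 was 0.653 (exact permutation p = 0.19) and fell to −0.12 without 2 libraries. Its r with Lars2 fell from 0.845 to 0.318 and with Gm26917 from 0.881 to 0.467. Its r with CT010467.1 fell from 0.856 to 0.560, so the r of Mir6236 leaned on the libraries left out. Over all 6 libraries its r had adjusted permutation p of 0.0139 with Gm26917, 0.0243 with CT010467.1 and 0.0262 with Lars2. By rank, Spearman's rho of Mir6236 was 0.943 with Gm26917 (adjusted permutation p = 0.0417). It was 0.829 with CT010467.1 and with Lars2 (adjusted p = 0.0729) and 0.771 with Gm23935 (adjusted p = 0.103). Spearman's rho for the 6 pairs without Mir6236 ran from 0.771 to 0.943, with adjusted p of up to 0.103. The 2 values of a pair share their denominator and their library. That denominator spanned 3.17-fold over the libraries, against 1.54-fold for the summed counts of the members. A shared denominator can raise r by itself, and permuting 1 of the 2 values breaks the sharing. These p-values therefore cannot tell whether the members move together beyond it.

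Lars2 was compared with the other tRNA synthetases, the enzymes that attach amino acids to tRNAs, since it is the only member with a protein product. Per kb of exon, Lars2 had 5158, 6639 and 3192 CPM in controls and 3440, 3099 and 1412 CPM in deficient samples. The median of 16 mitochondrial synthetases was 1.28, 1.38 and 1.34 CPM per kb in controls and 1.16, 1.10 and 1.04 in deficient samples. Lars2 thus stood 1359-fold to 4813-fold above the median of its own class, and on average 1322-fold above its most abundant member per kb, Hars2, the histidyl enzyme. It stood 178-fold to 951-fold above the median of 21 cytosolic synthetases, among which Wars, the tryptophanyl enzyme, was highest per kb at 52.0 CPM. Lars, the cytosolic leucyl enzyme, was at 36.6, 37.5 and 37.2 CPM in controls and 32.9, 37.9 and 33.4 CPM in deficient samples (log2 fold change −0.093 ± 0.080, edgeR adjusted p = 0.485).

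None of the 37 other synthetases was called by edgeR, DESeq2 or limma-voom, and 7 had an unadjusted edgeR p under 0.05, where 27.3% of all genes tested did. Their log2 fold changes ran from −0.26 (Iars) to 0.22 (Rars) in the cytosolic list and from −0.88 (Mars2) to 0.12 (Wars2) in the mitochondrial list, and no listed gene was below the −0.91 of Lars2. Rars, the arginyl enzyme, reached an adjusted p of 0.0765 (124, 125 and 135 CPM in controls, 150, 145 and 155 in deficient samples) below the fold threshold. Mars2, the mitochondrial methionyl enzyme, had 1.70, 3.21 and 2.95 CPM against 1.64, 1.41 and 1.23 (edgeR adjusted p = 0.129). The medians were 0.030 for the cytosolic and −0.17 for the mitochondrial list, beside −0.018 over all genes tested. In the mitochondrial list 14 of 16 lay below zero, where 52.3% of all genes tested did. The cytosolic median was 0.092 without control 1 and 0.090 with library totals, and the mitochondrial median was −0.058 without deficient 3. The log2 level of Lars2 less the mitochondrial median was 13.3, 13.6 and 12.5 in controls and 12.8, 12.6 and 11.7 in deficient samples, a difference of −0.80 (exact permutation p = 0.3). Across the 6 libraries the CPM of Lars2 had a CV of 47.6%, against a median of 16.4% for the mitochondrial and 9.25% for the cytosolic list, beside 41.4% for CT010467.1 and 47.1% for Gm23935. The most variable synthetases, both of low level, were Mars2 (41.5%) and Tarsl2 (38.3%). Of the coding neighbours of Lars2, Limd1, 16039 bases downstream, had 35.8 CPM on average (log2 fold change −0.053) and Tmem158, 106162 bases upstream, 1.19 CPM.

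**Figure D4:**
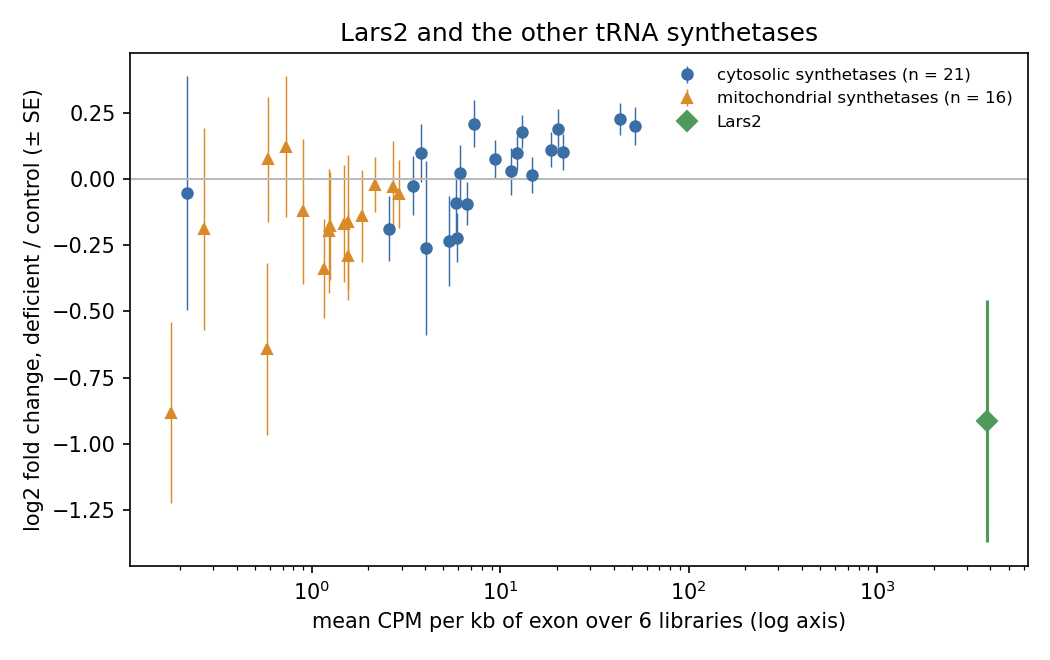
Each point is a tRNA synthetase, placed by its mean CPM per kb of exon (log axis) and its log2 fold change with its SE as a bar, circles for cytosolic and triangles for mitochondrial enzymes. Lars2, the diamond, lies alone at 3823 CPM per kb and −0.91, while the other 37 lie at or below 52.0 CPM per kb.

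Several other structural RNAs kept an even ratio to CT010467.1. The mitochondrial ribosomal RNAs mt-Rnr1 (12S) and mt-Rnr2 (16S), transcribed from the mitochondrial genome, took 0.169% to 0.409% and 0.293% to 0.741% of counts. Per count of CT010467.1, mt-Rnr1 had 0.0299 to 0.0318 counts in controls and 0.0308 to 0.0343 in deficient samples, a CV of 5.58%, which was more even than any pair of members. It was also the gene most like CT010467.1 in log2 CPM among 11786 with at least 2 CPM on average (r = 0.996 over 6 libraries). For mt-Rnr2, for Rpph1, the RNA of RNase P, and for Rn7sk, the 7SK RNA that holds back transcription elongation, the CV of this ratio was 8.48%, 11.2% and 14.0%. Others were less even: the CV was 75.7% for Rmrp, the RNA of RNase MRP, 45.5% for Neat1, the lincRNA of paraspeckles, 31.2% for Terc, the telomerase RNA, and 23.0% for Malat1, a nuclear lincRNA. Relative to all other genes, the r with CT010467.1 was 0.676 for Rmrp and −0.51 for Neat1. Of 10 structural RNAs tested, none reached an adjusted p of 0.1 by edgeR and 3 an unadjusted p under 0.05, where 27.3% of all genes tested did. Malat1 had 1020, 1048 and 847 CPM in controls and 612, 667 and 340 CPM in deficient samples (log2 fold change −0.85 ± 0.28, edgeR adjusted p = 0.143). It was called by DESeq2 and limma-voom, which called 887 and 836 of the 13961 genes tested. Of the 10, 9 had a log2 fold change below zero, where 52.3% of all genes tested did. Their median was −0.60, or −0.34 without control 2. The other 353 genes annotated as rRNA received only 45 to 64 counts per library in sum, with 242 of them at 0 throughout and no count above 6.

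Genes that make and process ribosomal RNA were examined next. Of 15 genes of RNA polymerase I and its factors, Rrn3, which recruits the polymerase to its promoter, reached an adjusted p of 0.0933 with 18.3, 21.7 and 18.8 CPM in controls and 15.8, 14.9 and 15.5 CPM in deficient samples (log2 fold change −0.34 ± 0.11), below the fold threshold. The lowest values were those of Polr1e (−0.75, adjusted p = 0.237) and Polr1b (−0.38, adjusted p = 0.418), both polymerase subunits, and the highest those of Twistnb (0.16) and Znrd1 (0.12). The list's median was −0.051, but 0.011 when scaled to library totals. Of 30 processing genes 1 was called, where 4.94% of all genes tested were: Nop58, a core protein of box C/D snoRNPs that guide rRNA methylation, fell from 19.4, 20.6 and 16.4 CPM to 16.1, 11.2 and 9.45 CPM (log2 fold change −0.63 ± 0.19, edgeR adjusted p = 0.0913). Nop58 was no longer called without control 1, control 2, deficient 2 or deficient 3 (adjusted p of 0.259, 0.275, 0.186 and 0.272), nor with library totals or no low-count filter (log2 fold change −0.56 and −0.577, short of the threshold) or with a minimum mean of 2 CPM (adjusted p = 0.105). Ncl, the nucleolar protein nucleolin, had 196, 193 and 216 CPM against 177, 158 and 152 (−0.32 ± 0.072, edgeR adjusted p = 0.0614), below the fold threshold. Dkc1, the pseudouridine synthase, had −0.65 (adjusted p = 0.118), while Rrp9 (0.35, adjusted p = 0.224) and Nop10 (0.17, adjusted p = 0.403) had the highest values. The median of the list was −0.17 and 23 of 30 lay below zero, beside 52.3% of all genes tested. The list's median was −0.096 without deficient 3 and −0.099 with library totals.

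The 5 genes whose log2 CPM was most like that of the summed members were Gga2, Gprasp1, Greb1, Senp7 and Lrrc1. Their r was 0.995 to 0.996 over the 6 libraries among 11782 genes. Greb1, an oestrogen-responsive gene, had 7.66, 11.6 and 4.19 CPM in controls and 4.31, 4.09 and 1.61 in deficient samples (−1.23 ± 0.47, edgeR adjusted p = 0.146). At looser thresholds, 778 of the 11782 genes, 6.60%, had an r above 0.9, and 250, 2.12%, an r above 0.95. None of the 5 was called by edgeR, where 3 had an unadjusted p under 0.05 (27.3% over all genes tested). DESeq2 called 1, Greb1, among 887 of 13961 genes tested. The 5 were picked for their likeness to the members, whose mean share was lower in deficient samples, so these counts are not independent of that choice.

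Taking the members out of the table raises the CPM of every other gene by one factor per library, where CPM is taken on library totals without TMM: 1.34, 1.45 and 1.20 in controls and 1.21, 1.21 and 1.10 in deficient samples. On the log2 scale this is 0.40 on average in controls and 0.23 in deficient samples, a difference of −0.17 (exact permutation p = 0.3) that every gene scaled to library totals takes on. Actb, the cytoskeletal actin, had 5597, 5099 and 6462 CPM of the library total in controls and 6480, 6486 and 7268 in deficient samples, and 7487, 7371, 7732, 7862, 7852 and 8026 once the members were out. Its CV over the controls dropped from 12.1% to 2.45%, and the log2 ratio of its genotype means from 0.24 to 0.072. Smarcc2 went from a log2 ratio of −0.043 with overlapping groups to −0.21 with none, at 119, 119 and 116 CPM against 105, 98.5 and 102 CPM. For Smarcc1 the CV over the controls rose instead, from 16.2% to 25.3%, and its log2 ratio went from −0.64 to −0.83.

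For the test across all genes the outcome depended on the scaling. With library totals, the median log2 fold change went from 0.041 to −0.12 when the members were removed, which is the one shift per library given above. The calls went from 700 (691 lower, 9 higher) to 743 (743 lower, 0 higher), with 539 shared. With the members removed, 3451 genes had an unadjusted p under 0.05, in either direction. With TMM, which sets aside the most extreme genes when it scales libraries, the log2 fold changes moved by a median of 0.0027. The calls went from 689 (681 lower, 8 higher) to 740 (732 lower, 8 higher), with 673 shared. Leaving out 1 library at a time moved the 689 calls to between 0 (without control 1, edgeR, with 2547 genes at an unadjusted p under 0.05) and 1245 (without control 3), with 61 without control 2, 264 without deficient 2 and 17 without deficient 3.

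**Figure D5:**
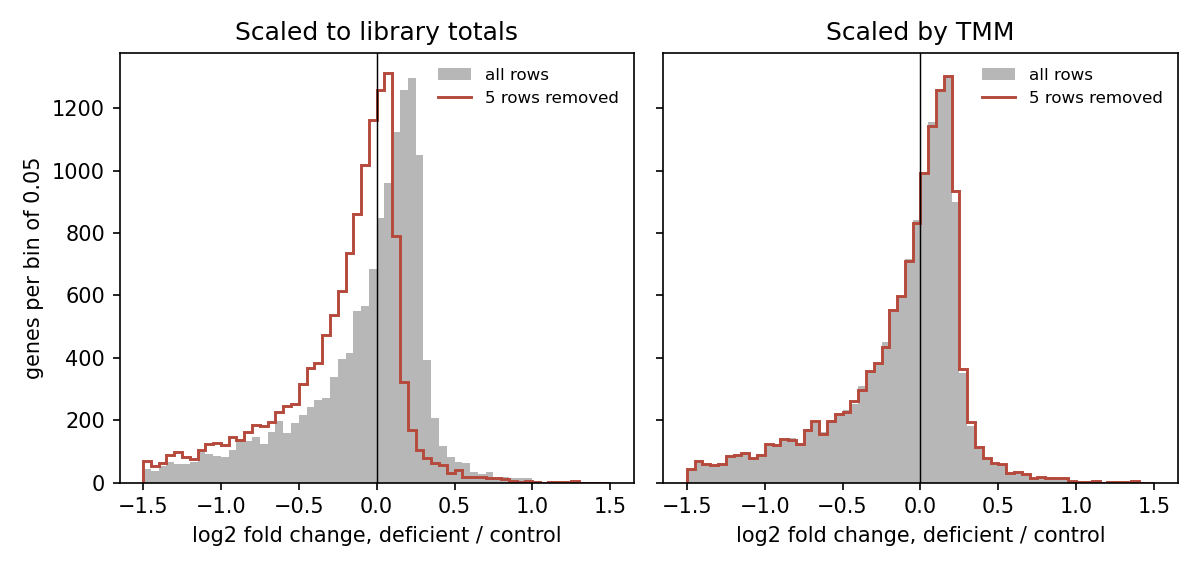
Histograms of the log2 fold change (deficient over control) of all genes tested, in bins of 0.05 from −1.5 to 1.5, with all genes in the table (grey) and with the 5 members removed (red line). Scaled to library totals the removal moves the distribution by a median of −0.17, and scaled by TMM by 0.0027.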

How the data were processed

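The authors deposited whole-number counts of reads per gene, without normalization, for 3 control and 3 deficient samples. According to the methods and the submitters' processing notes, strand-specific poly(A) libraries were sequenced in pairs, checked with FastQC 0.11.7, trimmed with cutadapt 1.18, aligned to GRCm38 with STAR and counted with featureCounts. The annotation release, the strand setting and the handling of reads with several places are not given in the sources used here. Genes were named through GENCODE M21, and sequences are from its transcripts (that of Mir6236 is not reported here). Here, counts were filtered with filterByExpr (minimum count 10, minimum total 15), normalized by TMM and tested with the edgeR 4.0.16 quasi-likelihood test with genotype as its term and Benjamini-Hochberg adjustment over all genes (R 4.3.3). The prior count on the log2 scale was 2. Shares, ratios and levels used exact permutation tests over samples (scipy). DESeq2 1.42.0, limma-voom (limma 3.58.1), library totals, other filters, a replicate block, removal of the members and each library left out in turn were alternatives. The members and all gene lists were chosen with earlier results of these data known. Named genes are the members, Smarcc1 and Smarcc2, genes of each list that were called, highest, lowest or most abundant per kb, structural RNAs, neighbours, other genes among the 10 most abundant, and the 5 most alike. Actb and the copies of Gm23935 were named after their values were seen.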

Additional observations from a re-analysis of the deposited data

How the results depend on the processing

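Of 13961 genes tested, 689 were called, and 1164 with the replicate number as a block. Leaving out 1 library gave 0 (without control 1, edgeR, with 2547 genes at an unadjusted p under 0.05), 61 (without control 2), 1245 (without control 3), 1037 (without deficient 1), 264 (without deficient 2) and 17 (without deficient 3). The replicate numbers do not pair the samples (correlations of deviations of 0.0284, −0.034 and 0.293). With the block, 3 members were called: CT010467.1 (−0.65, adjusted p = 0.000142), Lars2 (−0.95, adjusted p = 0.00774) and Gm26917 (−0.83, adjusted p = 0.0908). Since the numbers do not pair the samples, these 3 calls are not evidence of a difference between the genotypes. With limma-voom Mir6236 was called (−2.34), among 836 of 13961 genes tested. The cause of these moves was not tested. With libraries left out the log2 fold changes ran from −0.92 to −0.36 for CT010467.1, −1.10 to −0.47 for Gm23935, −1.15 to −0.61 for Lars2, −0.95 to −0.42 for Gm26917 and −3.21 to −1.17 for Mir6236. The difference in the ratio to CT010467.1 ran from −0.10 to 0.053 for Gm23935, which turned positive without control 1 (0.032), deficient 2 (0.053) or deficient 3 (0.018), and from −0.042 to 0.00044 for Gm26917, which turned without deficient 3. Deficient minus control, the share of all 5 ran from −13.2 to −6.03 percentage points. The median of the rRNA processing list was −0.28 with library totals and the members removed. The cytosolic synthetase median was −0.078 under that setting and above zero in the others run with all 6 libraries. The members' values rest on at least 16898 counts in each library.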

Other observations

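Gm24245, a gene with the same 57 bases as Gm23935, did not follow Gm23935 but Mir6236, which lies on another chromosome and shares no 25-base word with it. This was noticed after the values were seen and is given as a description. Gm24245 had 111, 171 and 102 CPM in controls, 106 CPM in deficient 2, and 20.8 and 9.64 CPM in deficient 1 and 3, the same libraries in which Mir6236 was low. Per 1000 counts of Mir6236 it had 9.74, 10.1 and 10.7 counts in controls and 10.9 to 12.01 in deficient samples, a 1.23-fold range with a CV of 7.75%. Per 1000 counts of Gm23935 it had 0.436 to 3.48 counts, a 7.97-fold range. Among 11786 genes with at least 2 CPM on average it was the gene most like Mir6236 in log2 CPM (r = 0.999 over 6 libraries, the next being 0.990). The other identical copy, Gm24270, had 38.4, 45.8 and 48.1 counts per 1000 of Gm23935 in controls, 45.1 in deficient 2, and 80.9 and 74.4 in deficient 1 and 3, so it was highest relative to Gm23935 in the samples where Gm24245 was lowest. Neither was called (log2 fold change −1.49 for Gm24245 with an edgeR adjusted p of 0.412, and −0.077 for Gm24270). What sets deficient 1 and 3 apart from deficient 2 in these genes was not tested.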
